A study of Mus musculus with 8 samples.

Results

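To examine how regulators of the cell cycle differed between the groups, the transcript levels of 10 transcription factor genes were followed in RNA-seq of primary murine cardiac fibroblasts, the matrix-producing cells of the heart. The genes were chosen by name from the 22274 genes of the table, and all 10 were found: E2f1 to E2f8, Foxm1 and Mybl2, which encodes B-Myb. There were 4 libraries labelled GFP, which stand for the empty vector, and 4 labelled OEIRF7, which stand for virus-driven overexpression of IRF7. The cells of all 8 libraries were treated with TGF-b, the cytokine that turns fibroblasts into myofibroblasts, and no untreated library is part of the comparison. The paper names an adenovirus that carries human IRF7 behind a CMV promoter, whereas the design text of the series names an adeno-associated virus. The sex, age and number of the mice, and whether the libraries of a group came from separate cultures, are not given in the sources used here, so that p-values measure the spread between these libraries.

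E2F proteins bind DNA mostly as pairs with a DP protein and set whether genes for DNA synthesis are read. E2f1, E2f2 and E2f3 are known as activators, E2f4 and E2f5 as repressors that work with the retinoblastoma family of pocket proteins, E2f6 as a repressor that works with Polycomb proteins, and E2f7 and E2f8 as atypical repressors that bind DNA without a DP protein. Later in the cycle B-Myb and then Foxm1, a forkhead factor, are recruited by the MuvB complex to genes for mitosis. In adult heart tissue most fibroblasts rest, and in culture a part of them cycles.

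Mouse Irf7 was examined first as a check of the labels. It was counted 2861, 3680, 2272 and 3291 times in the libraries labelled GFP, replicates 1 to 4, and 385, 421, 380 and 404 times in those labelled OEIRF7. The log2 fold change was -2.96 (standard error, SE, of 0.121; edgeR adjusted p = 7.7e-11), a fall in the libraries labelled as overexpressing the gene. With a human gene in the virus these counts would read mainly the endogenous gene and would not check the labels. With a mouse gene they go against them, so groups are named here by their labels. How many reads of a human gene would be counted for mouse Irf7 was not tested. Total counts lay between 24454801 and 28658826 per library. Markers of the labelled cell type were read as well. Dcn, a matrix proteoglycan of fibroblasts, averaged 595 ± 31.4 CPM with the label GFP and 586 ± 23.4 CPM with the label OEIRF7 (counts scaled to library size; SD, n = 4 per group). Tcf21, which the paper names as a label of quiescent cardiac fibroblasts, averaged 58.3 ± 6.13 and 23.1 ± 3.49 CPM. All 10 fibroblast markers passed the filter on low counts, but so did all 10 endothelial and all 10 macrophage markers. Passing this filter therefore does not tell these cell types apart.

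Of the 10 regulators, 4 were lower in the libraries labelled OEIRF7 (E2f3, E2f6, E2f7 and Foxm1), 1 was higher (E2f4) and 5 did not pass the test. The test was edgeR's quasi-likelihood test at an adjusted p under 0.05 over 13533 genes. In this comparison 29.9% of all genes tested were lower and 29.0% were higher, and the counts of regulators are to be read against these shares. The groups did not overlap in 5 of the 10 regulators, against 53.8% of all genes tested. The median log2 fold change was -0.25 over the 10 regulators and 0.00 over all genes tested. The size of the changes was modest, from -0.62 for Foxm1 to 0.27 for E2f4 on the log2 scale.

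**Figure D1:**
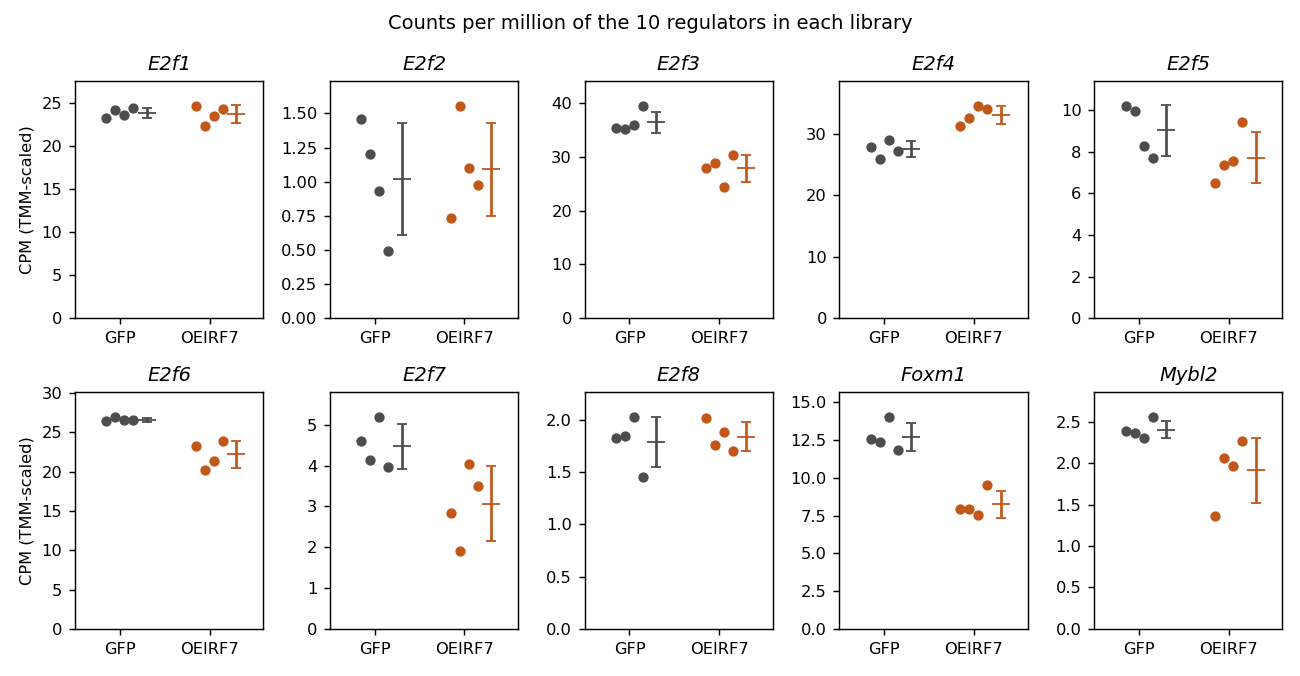
Each panel shows 1 gene, with CPM after TMM scaling on the vertical axis, 1 point per library and a bar for the mean ± SD of the 4 libraries of a group. Foxm1, E2f3 and E2f6 lie lower in every library labelled OEIRF7, E2f4 lies higher in every one, and the groups overlap in E2f1.

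Among the activators, E2f3 alone passed the test, and it was lower. Its CPM were 35.3, 35.2, 35.9 and 39.4 in the libraries labelled GFP and 27.9, 28.8, 24.3 and 30.3 in those labelled OEIRF7. Every library labelled OEIRF7 was thus below every library labelled GFP. The means were 36.4 ± 1.97 and 27.8 ± 2.54 CPM (SD, n = 4 per group), and the log2 fold change was -0.39 (SE 0.0654, edgeR adjusted p = 0.00013). On log2 CPM, the exact permutation test (two-sided) gave p = 0.029, the smallest that 4 against 4 libraries allow. In linear terms the level was 0.764-fold, with a 95% interval from 0.693 to 0.842.

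E2f3 is known to be transcribed from alternative first exons, which give the proteins E2F3a and E2F3b, and the gene count adds both. The RefSeq promoter table (GRCm38.p6) held a window for each start, and their 250 upstream bases are shown because the fall cannot be assigned to either. E2f3 lies on the minus strand of chromosome 13 (29906575 to 29986063). The outer window is chr13:29986064-29986313 and the inner one is chr13:29984392-29984641, an intronic stretch of the longer transcript. Capitals mark letters of an E2F motif (TTTCCCGC, TTTCGCGC, TTTGCCGC or TTTGGCGC) or of a CHR element (TTTGAA or TTCGAA), each searched on both strands.
E2f3 outer start: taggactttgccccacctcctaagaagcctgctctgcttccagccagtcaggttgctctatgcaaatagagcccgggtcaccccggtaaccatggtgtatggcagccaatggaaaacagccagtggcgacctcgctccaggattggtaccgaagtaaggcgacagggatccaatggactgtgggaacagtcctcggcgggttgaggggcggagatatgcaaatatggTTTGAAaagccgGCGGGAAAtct
E2f3 inner start: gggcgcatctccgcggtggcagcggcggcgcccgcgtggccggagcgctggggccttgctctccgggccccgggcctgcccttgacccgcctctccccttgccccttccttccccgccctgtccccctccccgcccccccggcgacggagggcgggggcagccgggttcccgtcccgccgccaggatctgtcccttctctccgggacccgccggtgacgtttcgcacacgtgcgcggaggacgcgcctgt
The outer window held GCGGGAAA, the reverse complement of TTTCCCGC, at positions -11 to -4 from the start site, and TTTGAA at -23 to -18. The inner window held neither set of letters, and its GC content was 78.0% against 55.6% in the outer one. Of all 32851 windows of 300 bases in the table, 2.26% held the E2F letters and 19.2% the CHR letters.

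E2f1, the founding activator, had almost the same level in both groups. Its CPM were 23.3, 24.2, 23.6 and 24.5 with the label GFP and 24.7, 22.4, 23.5 and 24.4 with the label OEIRF7. The highest and the lowest value both came from libraries labelled OEIRF7. The log2 fold change was -0.01 (SE 0.0531, edgeR adjusted p = 0.89), and its 95% interval ran from 0.918-fold to 1.07-fold. E2f2, an activator best known from blood cells, was close to the limit of counting, with 13 to 39 counts in the libraries labelled GFP and 19 to 45 in those labelled OEIRF7. Its log2 fold change of 0.10 had a 95% interval from -0.59 to 0.79, so that a level of 0.666-fold to 1.73-fold lay within the error at this depth.

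Of the repressors that work with pocket proteins, E2f4 passed the test and E2f5 did not, and the difference between them was not tested. E2f4 was higher in the libraries labelled OEIRF7. Its CPM were 27.8, 25.9, 29.1 and 27.3 with the label GFP and 31.3, 32.6, 34.5 and 34.1 with the label OEIRF7, and the groups did not overlap. The means were 27.5 ± 1.31 and 33.1 ± 1.49 CPM (SD, n = 4 per group) and the log2 difference was 0.27 (SE 0.0532, edgeR adjusted p = 0.00055; exact permutation test, p = 0.029). It was the sole member called higher, at 1.20-fold with a 95% interval from 1.11 to 1.30.

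E2f5, its closest relative in function, had CPM of 10.2, 9.98, 8.26 and 7.70 with the label GFP and 6.51, 7.38, 7.58 and 9.45 with the label OEIRF7. The groups overlapped through replicate 4 of the libraries labelled OEIRF7. The log2 fold change was -0.23 (SE 0.122, edgeR adjusted p = 0.12), with a 95% interval from -0.49 to 0.03. Without that library the value was -0.34 (adjusted p = 0.026 from edgeR), which passed the test. E2f5 shares 26 exon bases with 1810022K09Rik on the opposite strand, whose log2 fold change was -0.05.

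E2f6, the repressor that acts with Polycomb proteins, was lower in the libraries labelled OEIRF7. Its CPM were nearly constant with the label GFP, at 26.4, 26.9, 26.5 and 26.5, and were 23.3, 20.2, 21.4 and 23.9 with the label OEIRF7. No library of the second group reached the first. The mean went from 26.6 ± 0.232 to 22.2 ± 1.71 CPM (SD, n = 4 per group), with a log2 fold change of -0.26 (SE 0.0598, edgeR adjusted p = 0.0016; exact permutation test, p = 0.029).

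Of the atypical repressors, E2f7 passed the test and E2f8 did not, and the difference between them was not tested. E2f7 had CPM of 4.59, 4.13, 5.19 and 3.97 with the label GFP and 2.83, 1.90, 4.04 and 3.49 with the label OEIRF7. Replicate 3 of the libraries labelled OEIRF7 lay just above replicate 4 of those labelled GFP, so the groups overlapped. The log2 fold change was -0.55 (SE 0.192, edgeR adjusted p = 0.023; exact permutation test, p = 0.057). It shares 86 exon bases with 1700020G17Rik on the opposite strand. This call was not firm: without GFP replicate 3, OEIRF7 replicate 1 or OEIRF7 replicate 2 the adjusted p was 0.069, 0.057 and 0.063 (edgeR), with log2 fold changes of -0.47, -0.52 and -0.37. On log2(FPKM + 1), where low genes are compressed, it was -0.22 (adjusted p = 0.10 from limma), and on log2(FPKM + 0.1) it was -0.46 (adjusted p = 0.11 from limma). In 11 of the 17 alternative settings the call was kept. Among these were the replicate number as a block (-0.57, edgeR adjusted p = 0.0059) and the fit without OEIRF7 replicate 3 (-0.72, edgeR adjusted p = 0.0040).

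E2f8 had 38 to 50 counts with the label GFP and 42 to 52 with the label OEIRF7. Its log2 fold change was 0.04 (SE 0.178, edgeR adjusted p = 0.85), with a 95% interval from -0.34 to 0.43. E2f8 shares 610 exon bases with Gm2788 on the opposite strand, and the strand setting of the counting is not given in the sources used here, so that its level is uncertain.

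The upstream windows of E2f6 and E2f7, the other members called lower for which RefSeq held a window, are shown for comparison with E2f3. E2f6 lies on the plus strand of chromosome 12 (16810963 to 16839742) with the window at chr12:16810715-16810964. E2f7 lies on the plus strand of chromosome 10 (110745439 to 110787384) with the window at chr10:110745189-110745438.
E2f6: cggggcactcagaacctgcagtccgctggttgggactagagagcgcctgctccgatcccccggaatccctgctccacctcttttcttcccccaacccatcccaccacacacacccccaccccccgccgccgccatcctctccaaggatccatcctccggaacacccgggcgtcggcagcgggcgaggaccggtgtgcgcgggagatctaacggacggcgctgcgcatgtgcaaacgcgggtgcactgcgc
E2f7: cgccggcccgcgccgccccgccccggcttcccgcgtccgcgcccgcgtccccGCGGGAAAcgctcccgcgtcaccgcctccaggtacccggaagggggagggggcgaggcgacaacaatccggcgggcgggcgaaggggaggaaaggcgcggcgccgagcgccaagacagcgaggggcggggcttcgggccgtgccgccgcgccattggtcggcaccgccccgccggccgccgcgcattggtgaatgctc
E2f7 held GCGGGAAA at positions -198 to -191, and E2f6 held neither set of letters. Among the other members, E2f2 held TTTGGCGC at 40 to 47 after 1 of its 2 starts and TTTGAA at -31 to -26 before the other, E2f8 held TTCAAA, the reverse complement of TTTGAA, at -20 to -15, and the windows of E2f1 and Mybl2 held no match. Only these exact letters were searched, so a window without a match can still hold a site written in other letters. The E2f1 window starts from a RefSeq start 466 bases inside the GENCODE gene, and its 250 upstream bases are exonic there, so it does not cover the stretch before the outer start. The E2f2 start with TTTGAA before it lies 8388 bases inside the GENCODE gene, and 46 of its 250 upstream bases are exonic. Windows were found for 7 of the 10 members. E2f4, E2f5 and Foxm1 had none.

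Foxm1 was lower in every library labelled OEIRF7, and its fitted value was the lowest of the 10 regulators, an order with E2f7 that turned without OEIRF7 replicate 3 (there the Foxm1 log2 fold change was -0.58 and the E2f7 log2 fold change was -0.72). Foxm1, on chromosome 6 (128362967 to 128376146), drives genes of G2 phase and mitosis. It was counted 336, 309, 346 and 310 times in the libraries labelled GFP and 205, 231, 192 and 235 times in those labelled OEIRF7, which is 12.5, 12.4, 14.0 and 11.8 CPM against 7.95, 7.96, 7.54 and 9.53 CPM. The groups did not overlap. The log2 fold change was -0.62 (SE 0.089, edgeR adjusted p = 2.8e-05; exact permutation test, p = 0.029), or 0.649-fold with a 95% interval from 0.569 to 0.741. Over the 17 alternative settings the value stayed between -0.73 and -0.54 and was called in all of them. Foxm1 shares 144 exon bases with Tex52 and 97 with Gm44596, both on the same strand. Tex52 had 0 to 2 counts per library and Gm44596 had 0. How reads in the shared bases were counted is not given in the sources used here. In bulk RNA, fewer cycling cells and less Foxm1 RNA per cycling cell cannot be told apart, and the same holds for every gene here that cells express mainly while they divide.

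Mybl2, on chromosome 2 (163054687 to 163084688), was lower in the mean but did not pass the test. Its CPM were 2.39, 2.36, 2.31 and 2.56 with the label GFP and 1.36, 2.07, 1.96 and 2.27 with the label OEIRF7. The groups did not overlap (exact permutation test, p = 0.029), but the nearest values, 2.31 and 2.27, were close. With 35 to 67 counts per library the log2 fold change of -0.33 had a standard error of 0.18 (adjusted p = 0.13 from edgeR) and a 95% interval from -0.71 to 0.06. In the other settings its adjusted p was between 0.085 and 0.35.

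**Figure D2:**
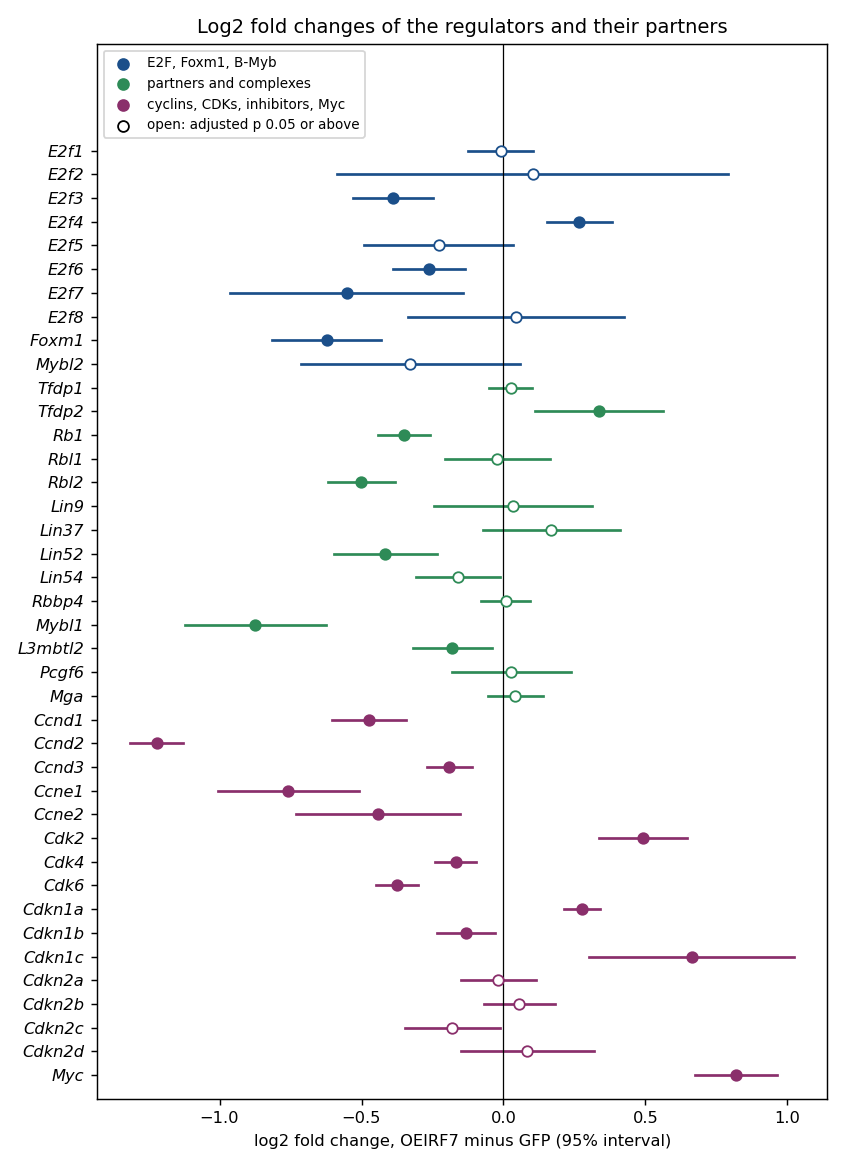
Log2 fold changes of the 10 regulators, 14 partner genes and 16 upstream genes (OEIRF7 minus GFP), with 95% intervals from edgeR and open symbols where the adjusted p was 0.05 or above. Foxm1 at -0.62 and E2f4 at 0.27 mark the range of the regulators, while Ccnd2 at -1.22 and Myc at 0.82 mark that of the upstream genes.

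The order of levels was compared in FPKM, the unit that corrects for gene length. In the libraries labelled GFP, E2f4 led with 13.7 ± 0.652 FPKM (SD, n = 4). E2f6 followed with 11.1 ± 0.162, E2f1 with 8.61 ± 0.191, E2f3 with 7.78 ± 0.419, E2f5 with 5.03 ± 0.687 and Foxm1 with 3.30 ± 0.22 FPKM. E2f7, Mybl2, E2f8 and E2f2 were at most 1.08 FPKM in each of these libraries. E2f1 and E2f3 were the sole neighbours in this order whose values overlapped.

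The order of the means was the same in the libraries labelled OEIRF7, with different overlaps. E2f4 had 16.8 ± 0.675 FPKM (SD, n = 4) and Foxm1 had 1.96 ± 0.278 FPKM. There E2f6 overlapped with E2f1, E2f3 with E2f5, E2f7 with Mybl2, and Mybl2 with E2f8, while E2f1 and E2f3, at 8.72 ± 0.38 and 6.06 ± 0.581 FPKM, no longer overlapped.

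As a share of the summed FPKM of E2f1 to E2f8, E2f4 held 28.6% ± 1.14 with the label GFP and 35.8% ± 1.64 with the label OEIRF7 (SD, n = 4 per group). The share of E2f3 was 16.3% ± 1.0 and 12.9% ± 1.08, and that of E2f6 was 23.2% ± 0.365 and 20.2% ± 1.09. The activators E2f1 to E2f3 together held 33.7% to 36.6% with the label GFP and 30.6% to 33.4% with the label OEIRF7, so that the groups lay side by side without overlap. The summed FPKM itself was 47.9 ± 0.502 and 46.85 ± 2.33 (SD, n = 4 per group). These shares describe transcripts and follow from the single values above.

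**Figure D3:**
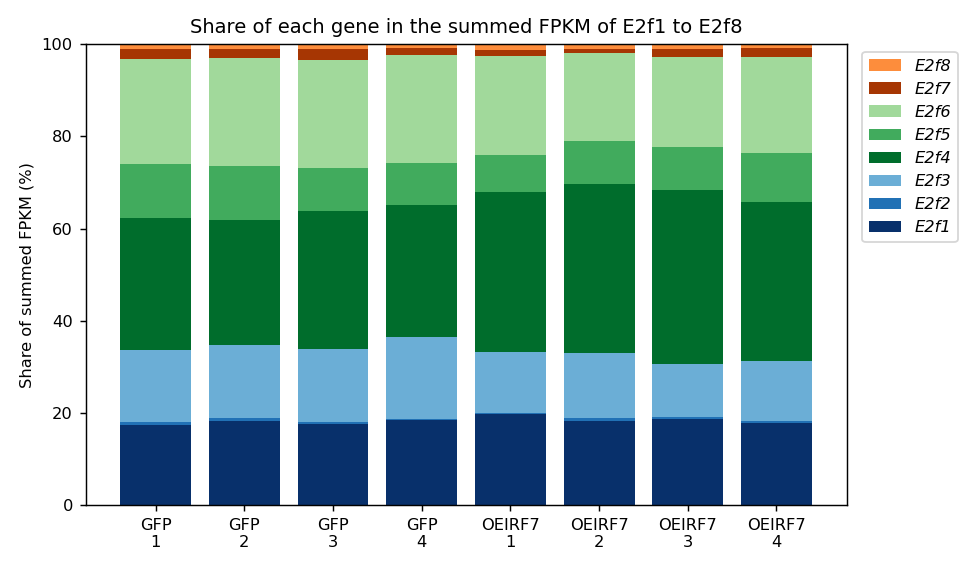
Stacked bars give the share (%) of each gene in the summed FPKM of E2f1 to E2f8, 1 bar per library. The dark green part, E2f4, takes 27.1% to 29.9% in the libraries labelled GFP and 34.4% to 37.7% in those labelled OEIRF7.

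The partners of these factors were examined next, as a list of 15 genes of which 14 passed the filter on low counts. Of these, 5 were lower, 1 was higher and 8 did not pass, beside 29.9% lower and 29.0% higher among all genes tested, and the median log2 fold change was -0.01. Myb, a blood cell paralog of Mybl2, was below the filter. Among the pocket proteins, Rbl2 (p130), the usual partner of E2f4 in resting cells, had CPM of 60.5, 58.1, 55.5 and 55.8 with the label GFP and 43.1, 38.8, 36.9 and 43.6 with the label OEIRF7. It was lower in every library labelled OEIRF7, with a log2 fold change of -0.50 (SE 0.0551, edgeR adjusted p = 2.0e-06). Rb1, the retinoblastoma gene, was also lower (-0.35, standard error 0.0424, adjusted p = 5.4e-06 from edgeR), with 56.7 to 62.4 CPM against 45.1 to 46.9. Rbl1 (p107), itself a known E2F target, had a log2 fold change of -0.02 with a 95% interval from -0.21 to 0.16.

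Of the DP genes, Tfdp1 had a log2 fold change of 0.03 (95% interval from -0.05 to 0.10). Tfdp2 was called higher, at 0.34 (SE 0.105, edgeR adjusted p = 0.013), although its groups overlapped, with 108 to 142 CPM against 136 to 194, and DESeq2 gave an adjusted p of 0.070. Without OEIRF7 replicate 3, the highest library, its log2 fold change was 0.21 (edgeR adjusted p = 0.028), and on log2(FPKM + 1) it was 0.51. By replicate 1 to 4 its CPM were 130, 108, 142 and 110 against 150, 139, 194 and 136. With the replicate number as a block the value was 0.33 (SE 0.0386, edgeR adjusted p = 2.9e-06). No label says that the number marks a shared culture. In the MuvB core, Lin52 was lower (-0.42, standard error 0.0848, adjusted p = 0.00066 from edgeR), whereas Lin9, Lin37, Lin54 and Rbbp4 did not pass and lay between -0.16 and 0.17. Lin54 passed without GFP replicate 1 (-0.20, edgeR adjusted p = 0.033).

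Mybl1, the A-Myb paralog of Mybl2, had the largest change among the partners. Its CPM were 17.4, 21.2, 17.8 and 19.6 with the label GFP and 9.69, 13.0, 8.05 and 10.5 with the label OEIRF7. The log2 fold change was -0.87 (SE 0.116, edgeR adjusted p = 1.3e-05). Among the proteins that join E2f6 in its Polycomb complex, L3mbtl2 was called lower (-0.18, adjusted p = 0.028 from edgeR), a call that was lost in 9 of 17 alternative settings, with an adjusted p of up to 0.14. Among these were the settings without GFP replicates 1 and 3 and OEIRF7 replicates 2 and 4, where it lay between 0.054 and 0.091 (edgeR). Pcgf6 and Mga had log2 fold changes of 0.03 and 0.04.

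Of 16 genes that act upstream of the pocket proteins (cyclins D and E, their kinases, CDK inhibitors and Myc), 8 were lower, 4 were higher and 4 did not pass the test, again beside 29.9% lower and 29.0% higher among all genes, and the median was -0.15 on the log2 scale. Ccnd2, a D-type cyclin that starts the release of E2F from pocket proteins, changed most, from 643 ± 28.5 to 276 ± 15.6 CPM (SD, n = 4 per group; -1.22, adjusted p = 2.1e-11 from edgeR). Ccnd1 and Ccnd3 were lower too, by smaller steps of -0.47 and -0.19. Ccne1, the E-type cyclin and a known E2F target, went from 8.19 ± 0.673 to 4.86 ± 0.752 CPM (-0.76, adjusted p = 5.4e-05 from edgeR).

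The 4 genes that were higher were Myc, Cdk2, Cdkn1a and Cdkn1c. Myc, a growth-promoting factor, went from 24.7 ± 1.36 to 43.6 ± 4.17 CPM (0.82, adjusted p = 8.9e-08 from edgeR), and Cdk2, the kinase of cyclin E, rose by 0.49. Cdkn1a (p21), a CDK inhibitor, rose by 0.28 (adjusted p = 1.9e-06 from edgeR), from 458 ± 10.03 to 554 ± 13.8 CPM. Cdkn1c (p57), another inhibitor, had 1.95 ± 0.39 and 3.09 ± 0.121 CPM (0.66, adjusted p = 0.0035 from edgeR). The groups did not overlap in 12 of the 16 upstream genes, these 4 among them, beside 53.8% of all genes tested. Other kinases and inhibitors went the other way or did not pass. Cdk4 and Cdk6 were lower, at -0.17 and -0.38 (edgeR adjusted p = 0.00061 and 2.5e-07), as was Ccne2 at -0.44. The inhibitor Cdkn1b was lower at -0.13 (edgeR adjusted p = 0.026), a call lost in 7 of 17 alternative settings. The inhibitors Cdkn2a, Cdkn2b, Cdkn2c and Cdkn2d did not pass the test.

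Known targets of the regulators were counted by the phase in which they are read. Of 28 targets of Foxm1 and B-Myb, genes read in G2 phase and mitosis, 27 were lower and 1 was higher, at a median of -1.14 on the log2 scale. Of 28 E2F targets, genes of DNA synthesis read at the entry to S phase, 27 passed the filter on low counts, of which 11 were lower, 4 were higher and 12 did not pass, with a median of -0.10. The shares lower in all genes tested were given above (29.9%), and the difference between the lists was not tested. A fall of mitosis genes in these libraries was known when the lists were written, so these counts are a description and no independent support.

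Among the targets of Foxm1 and B-Myb, the largest changes with non-overlapping groups and at least 1 CPM were those of Nusap1, Ccnb2, Plk1 and Kif2c. Nusap1, a spindle protein, had a log2 value of -2.52 (SE 0.199), from 3.81 ± 0.122 to 0.659 ± 0.195 CPM (SD, n = 4 per group). Ccnb2, a mitotic cyclin, had -1.93 (SE 0.13) and Plk1, a mitotic kinase, had -1.83 (SE 0.179). Kif2c, a kinesin-family protein of the spindle, had -1.74. Each of these 4 changes was larger in size than that of Foxm1, but the 4 were picked as the largest of their list. The 1 target that was higher was Cks2, a CDK-binding protein, at 0.42 (SE 0.0929, edgeR adjusted p = 0.0013).

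Among the E2F targets, Ccna2, the cyclin of S and G2 phase, was lowest at -1.47 (SE 0.147), from 7.37 ± 0.868 to 2.66 ± 0.531 CPM. Tk1, a thymidine kinase, and Cdc6, a licensing factor, followed with -0.99 and -0.89, and the call of Cdc6 was lost on log2(FPKM + 1), at -0.19 (limma adjusted p = 0.079). The 4 targets that were higher were Cdt1, Orc1, Fen1 and Slbp, at 0.78, 0.50, 0.45 and 0.24. Cdt1 and Orc1 load the replicative helicase together with Cdc6, which was lower. Orc1 had overlapping groups, and its adjusted p rose from 0.032 to up to 0.11 when single libraries were left out (edgeR; 0.054 without GFP replicate 1, 0.090 without GFP replicate 3, 0.081 without GFP replicate 4 and 0.11 without OEIRF7 replicate 4).

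**Figure D4:**
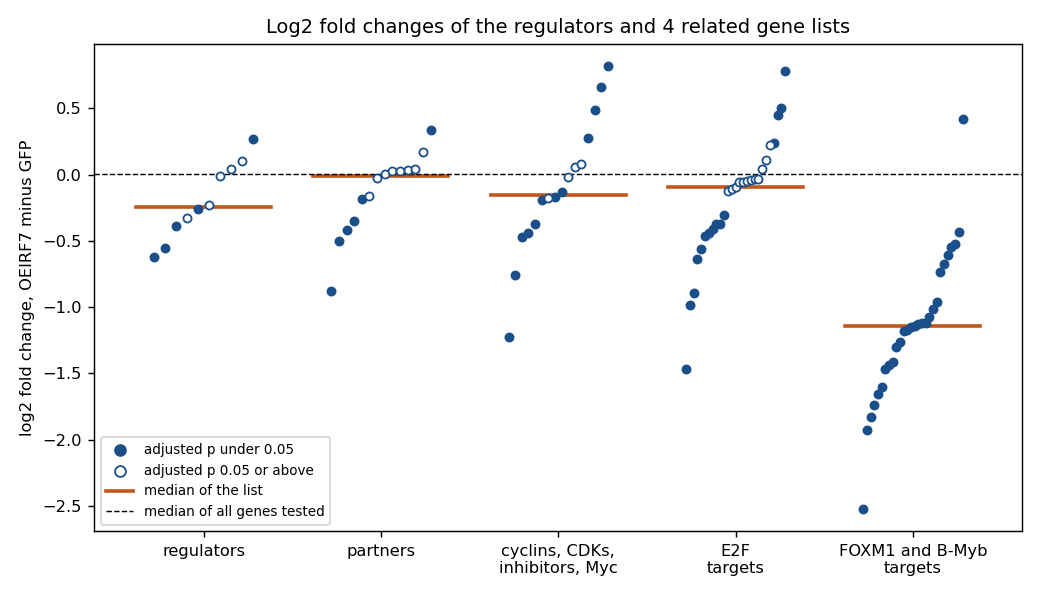
Each point is the log2 fold change (OEIRF7 minus GFP) of 1 gene, filled where the adjusted p was under 0.05, for the 10 regulators and 4 related lists. Orange lines mark the list medians, which were -0.25 for the regulators, -0.10 for the E2F targets and -1.14 for the targets of Foxm1 and B-Myb. The dashed line is the median of all genes tested at 0.00.

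The genes whose log2 CPM over the 8 libraries were most like a member were sought among 10212 genes outside the lists with a mean of at least 5 CPM. For Foxm1 these were Cyb561a3, Gatb and Adcyap1r1, with Pearson's r of 0.995, 0.992 and 0.991. After the group means were subtracted r was 0.952, 0.922 and 0.920. These genes were picked on the same values, so the second r is no separate observation. For Mybl2 they were Eefsec, Eid2 and Ntan1 (r = 0.953, 0.935 and 0.929). For E2f1, which did not differ between groups, they were 2200002D01Rik, H2ax and Nde1 (r = 0.877, 0.870 and 0.849). All points share libraries, and the highest of so many correlations over 8 libraries is large for any gene, so these are a description.

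Markers of other cells of the heart were read in the same libraries, and their counts stand beside 29.0% higher and 29.9% lower among all genes tested. Of 10 macrophage markers, 6 were higher with the label OEIRF7 and 4 did not pass the test (edgeR), and their summed level was 293 to 348 CPM with the label GFP and 384 to 423 CPM with the label OEIRF7. Of 10 endothelial markers, 4 were higher and 1 was lower (summed level 247 to 257 CPM and 249 to 278 CPM). Of 8 epicardial markers tested, 4 were lower and 2 were higher (summed over the list of 10, 233 to 248 CPM and 168 to 181 CPM), and of 8 mural markers 4 were lower and 3 were higher (1466 to 1582 CPM and 1326 to 1477 CPM). Of 10 cardiomyocyte markers, Tnnt2 alone passed the filter on low counts and was lower. Myh6, the main cardiac myosin, was at 0 in the 4 libraries labelled OEIRF7 and averaged 0.00953 CPM in the others. Of the 10 fibroblast markers themselves, 5 were lower and 2 were higher (13565 to 14006 CPM and 12609 to 13609 CPM). Among them Tcf21 fell most, at -1.33 on the log2 scale, and Pdgfra rose most, at 0.25. The summed levels of macrophage, epicardial and cardiomyocyte markers did not overlap between the groups, while those of endothelial, mural and fibroblast markers did. The cardiomyocyte sums were 9.95 to 13.7 CPM with the label GFP and 7.74 to 9.89 CPM with the label OEIRF7. A sum can rest mostly on a single gene. Lyz2 averaged 202 and 235 CPM among the macrophage markers, and Pdgfrb 1413 and 1268 CPM among the mural ones. The part of these cells in the results was not tested.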

How the data were processed

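Per the paper's methods, the authors trimmed reads with Trimmomatic, mapped them with HISAT2 to GRCm38 and deposited raw counts per gene from HTSeq-count. They also deposited FPKM from Cufflinks, rounded to 2 decimals. Tool versions and the strand setting are not given in the sources used here, and the labels and the paper name different extraction and library kits. The authors' group means, fold changes and p-values in the table were not used. In the deposited file, 121 symbols had letters replaced by GFP and were restored by identifier, and coordinates are from GENCODE M21.

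Counts of all 22274 genes (24454801 to 28658826 per library) were tested with edgeR 4.0.16 under R 4.3.3. filterByExpr kept 13533 genes, and TMM scaling gave factors from 0.989 to 1.01. The 4 libraries labelled OEIRF7 were compared with the 4 labelled GFP by the quasi-likelihood test with no covariate, and p-values were adjusted by the Benjamini-Hochberg method across those genes (threshold 0.05). Standard errors and 95% intervals follow from the F statistic. Log2 CPM used a prior count of 2 and printed CPM are TMM-scaled without it. No pair of replicates agreed within sampling noise (the ratio of chi-square to its degrees of freedom was 2.69 or more). Alternatives used DESeq2 1.42.0 and limma 3.58.1 on log2(FPKM + 1) or log2(FPKM + 0.1), among others.

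Named are the 10 regulators, Irf7, all partners, and from each further list the 4 largest changes past the test with at least 1 CPM and groups apart, with genes called against the direction of most of the list. The remaining upstream genes, such as Ccnd1, Ccnd3, Cdk4 and Cdk6, and marker genes were added after their values were seen. The regulators and lists were chosen with earlier results of these data known. In simulated counts with 200 genes changed by 2-fold among the 13533 of this comparison, edgeR tested 13446 and recovered 88.5%, with 6.35% false calls. DESeq2 also recovered 88.5%, with 10.2% false calls. The planted changes were larger than that of any regulator, and far fewer genes changed than were called in the data. The recovery therefore cannot be read as that for the regulators. Promoter windows are from RefSeq (GRCm38.p6).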

Additional observations from a re-analysis of the deposited data

How the results depend on the processing

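The 17 alternative settings were DESeq2, scaling by library size alone or by the upper quartile, filters that kept genes with 1 count over all libraries or with 10 in each, a replicate block, limma on FPKM with 3 choices of pseudocount and filter, and each of the 8 libraries left out. E2f3, E2f4, E2f6 and Foxm1 were called in the same direction in all 17, and E2f1, E2f2, E2f8 and Mybl2 in none. E2f7 lost its call in 6, with an adjusted p of up to 0.14, and E2f5 gained one without OEIRF7 replicate 4. The number of regulators lower was 3 to 5 and the number higher was 1 over these settings. The count of partners that were higher was 0 with DESeq2, where 1 had an unadjusted p under 0.05, and 1 in the other settings. Irf7 lay between -3.06 and -2.72. On log2(FPKM + 1), which compresses low genes, Nusap1, Plk1, Ccnb2 and Kif2c kept their calls with -0.88, -1.12, -1.28 and -0.65, and Ccna2 and Tk1 with -0.86 and -0.56. Over the genes named and listed, 30 of 1037 values lost a call, 8 gained one and 0 reversed.

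With the replicate number as a block, 4 regulators were lower and 1 was higher, as without it, and over all genes 4057 were higher and 4154 lower, against 3924 and 4045. Deviations from the group means correlated between libraries of the same number with r from 0.0792 to 0.138, and each of the 8 libraries correlated best with its own number, a hint from the data, since no label says that the number marks a shared culture. Limits are the few counts behind E2f2, E2f8 and Mybl2, the unknown strand setting and the unknown source of the replicates.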

Other observations

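Promoter letters were set beside the fold changes of all genes, not only of the regulators. Of the tested genes, 10664 had a RefSeq window and a symbol of their own, of which 30% were lower and 29.1% higher in the libraries labelled OEIRF7 (edgeR). The 478 genes whose window held the E2F letters had a median log2 fold change of -0.05, with 37.0% lower and 24.1% higher. The 1771 genes with the CHR letters had a median of -0.02, with 31.6% lower and 27.3% higher, and the 4562 genes with CCAAT had a median of -0.01. In the list of Foxm1 and B-Myb targets, 19 genes held the CHR letters, and all 19 were lower, with a median of -1.26. In the whole list 27 of 28 were lower, with a median of -1.14, so the letters do not set these 19 apart. That list was written with a fall of mitosis genes already known. In the list of E2F targets, 11 held the E2F letters, of which 4 were lower and 2 higher. These are descriptions of letters in a window of 300 bases, with no test, and a match is no binding site. Likewise, a missing match does not show that a site is absent.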
